A study of Mus musculus with 20 samples.

Results

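Hox cluster genes were counted in 6 RNA libraries of mouse brain. They were taken as every gene symbol made of Hoxa, Hoxb, Hoxc or Hoxd and a number, which gave 39 of the 34620 symbols counted. The series holds 20 samples, of which 14 were bisulfite libraries, not analysed here. The 6 polyA RNA libraries came from frozen, sectioned and microdissected brain, and all were labelled as wild-type male C57BL/6 mice without treatment. Precursors of the hippocampus (HP) and of the striatum (SP) gave 1 library each. Young pyramidal neurons of the hippocampal CA fields (yCA) and young spiny neurons (yMSN, called medial spiny neurons in the labels and taken as medium spiny neurons) also gave 1 each. Dorsal spiny neurons of the same kind gave 2, dMSN 1 and dMSN 2. The labels give neither ages nor the number of animals behind a library. HP, SP, yCA and yMSN had no replicate, so an SD is given for dMSN alone.

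Hox genes encode homeodomain transcription factors and lie in the Hoxa, Hoxb, Hoxc and Hoxd clusters, with the paralog groups in the same order in each. Low-numbered (anterior) groups are switched on in the hindbrain and its neural crest, and higher-numbered groups in the spinal cord, trunk and limbs. Forebrain and midbrain form in front of the Hox territory, where the clusters are known to be kept off by Polycomb proteins. Hox proteins bind DNA together with cofactors of the Pbx and Meis families, and retinoic acid is a known inducer of the anterior genes.

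The sequences just upstream of a listed transcript start are shown for 4 genes that the levels below turn on. They were taken from the anterior genes of SP and the central gene of the young libraries. Each is the 250 bases before the RefSeq transcript start in GRCm38.p6, read 5′ to 3′ on the gene's strand. They are Hoxa2 (minus strand, chr6:52164832-52165081), Hoxa3 (minus strand, chr6:52213068-52213317), Hoxb1 (plus strand, chr11:96365508-96365757) and Hoxd8 (plus strand, chr2:74704365-74704614). Capitals mark matches, on either strand, to TGATNNAT, a form of the site that Hox and Pbx proteins are known to bind as a pair.
Hoxa2: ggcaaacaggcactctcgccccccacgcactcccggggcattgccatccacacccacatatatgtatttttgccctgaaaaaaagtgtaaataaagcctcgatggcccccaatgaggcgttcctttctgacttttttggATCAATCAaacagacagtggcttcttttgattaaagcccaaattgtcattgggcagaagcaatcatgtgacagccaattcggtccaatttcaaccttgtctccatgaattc
Hoxa3: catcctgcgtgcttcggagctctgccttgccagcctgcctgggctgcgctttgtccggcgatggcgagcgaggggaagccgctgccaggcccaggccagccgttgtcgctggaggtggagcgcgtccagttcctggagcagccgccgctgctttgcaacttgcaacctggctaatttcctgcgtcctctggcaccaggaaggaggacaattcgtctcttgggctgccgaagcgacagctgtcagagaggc
Hoxb1: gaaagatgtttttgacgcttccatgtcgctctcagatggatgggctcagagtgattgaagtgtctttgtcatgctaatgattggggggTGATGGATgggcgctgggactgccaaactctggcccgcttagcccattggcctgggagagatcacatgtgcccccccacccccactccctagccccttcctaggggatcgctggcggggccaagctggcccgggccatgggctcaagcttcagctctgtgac
Hoxd8: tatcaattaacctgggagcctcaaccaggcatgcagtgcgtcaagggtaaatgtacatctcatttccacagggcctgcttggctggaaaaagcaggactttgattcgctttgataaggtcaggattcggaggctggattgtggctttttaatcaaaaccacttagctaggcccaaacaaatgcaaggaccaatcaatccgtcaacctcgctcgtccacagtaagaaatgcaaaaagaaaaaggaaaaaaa

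The window of Hoxa2 held 1 match, which began 111 bases before the start. The window of Hoxb1 held 1 match, which began 162 bases before the start. Those of Hoxa3 and Hoxd8 held none of these letters. The listed start of Hoxa3 lies between those of Hoxa6 and Hoxa7 in the cluster, and no start of Hoxa3 nearer to Hoxa2 was searched. The promoter table held 24 such windows for 22 of the 39 Hox genes, and 4 of the 24 windows (16.7%) had a match, 1 each of Hoxa2, Hoxb1, Hoxb8 and Hoxd11, against 2524 of 32851 windows of the same length in the whole table (7.68%). A match describes the letters and was not tested as a binding site.

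Reads assigned to genes ranged from 31282185 in HP to 36969136 in yMSN, and were 152347673 in dMSN 1 and 145713678 in dMSN 2. Levels are in CPM, the read count divided by the library size after scaling by the trimmed mean of M values (TMM), and were compared between libraries for the same gene, not between genes, since no gene lengths were used. A count of 0 allows up to 3 reads, or 0.0755 CPM in SP, 0.0861 in HP, 0.0691 in yMSN, 0.0771 in yCA and 0.0249 and 0.0259 in the dMSN pair, and these limits and all intervals cover counting error only. Forebrain markers were counted in every library, with a summed level from 190 CPM in SP to 681 CPM in yCA. The medium spiny neuron gene Ppp1r1b, which encodes DARPP-32, stood at 2574 and 2472 CPM in the dMSN libraries, 19.1 in yMSN and 26.1 in yCA. The 6 medium spiny neuron markers summed to 104 CPM in yMSN and 98.4 in yCA, so they did not separate yMSN from yCA. The 4 pyramidal neuron markers summed to 1024 CPM in yCA, 607 in yMSN, and 1173 and 1809 in the dMSN pair. Slc17a7 alone held 936 and 1487 CPM of the dMSN sums, and Neurod6, Neurod2 and Bcl11b were each lower in dMSN than in yCA. Of the striatal precursor markers, Gsx2 (4.08 CPM in HP and 2.59 in SP), Dlx1, Dlx2 and Dlx5 were no higher in SP than in HP. Eif2s3y, Kdm5d and Ddx3y, which lie on the Y chromosome, were at 0 in SP and yCA, against the male label, and Xist was at 489 to 1087 CPM in HP, SP, yCA and yMSN and at most 0.0332 CPM in dMSN. SP is the library with the highest Hox level, so its comparisons cannot be given without it. In tissue libraries such as these, fewer cells of a type and less RNA per cell cannot be told apart.

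Of the 39 Hox genes, 32 had at least 1 read in some library, 13 had at least 10 reads in 1 library, and 5 reached 1 CPM in a library: Hoxa2, Hoxa3, Hoxb1, Hoxb2 and Hoxd8. The 7 genes without a read in any library were Hoxa6, Hoxa11, Hoxb13, Hoxc10, Hoxc11, Hoxd10 and Hoxd12, most of them from the posterior part of a cluster. The other 19 had between 1 and 9 reads in their highest library.

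The libraries differed in how many Hox reads they held and in which part of the clusters these came from. All Hox genes together had 575 reads in SP, 237 in yCA, 154 in yMSN, 26 in HP and 40 and 43 in the dMSN pair. As a summed level this was 14.5 CPM in SP (exact 95% interval 13.3 to 15.7), 6.09 in yCA (5.34 to 6.92), 3.54 in yMSN (3.01 to 4.15) and 0.746 in HP (0.488 to 1.09). The dMSN libraries had 0.332 and 0.371 CPM, a mean of 0.352 ± 0.0273 (SD, n = 2). The intervals of SP, yCA, yMSN and HP do not overlap one another, while those of HP (from 0.488) and dMSN 2 (up to 0.5) meet.

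**Figure D1:**
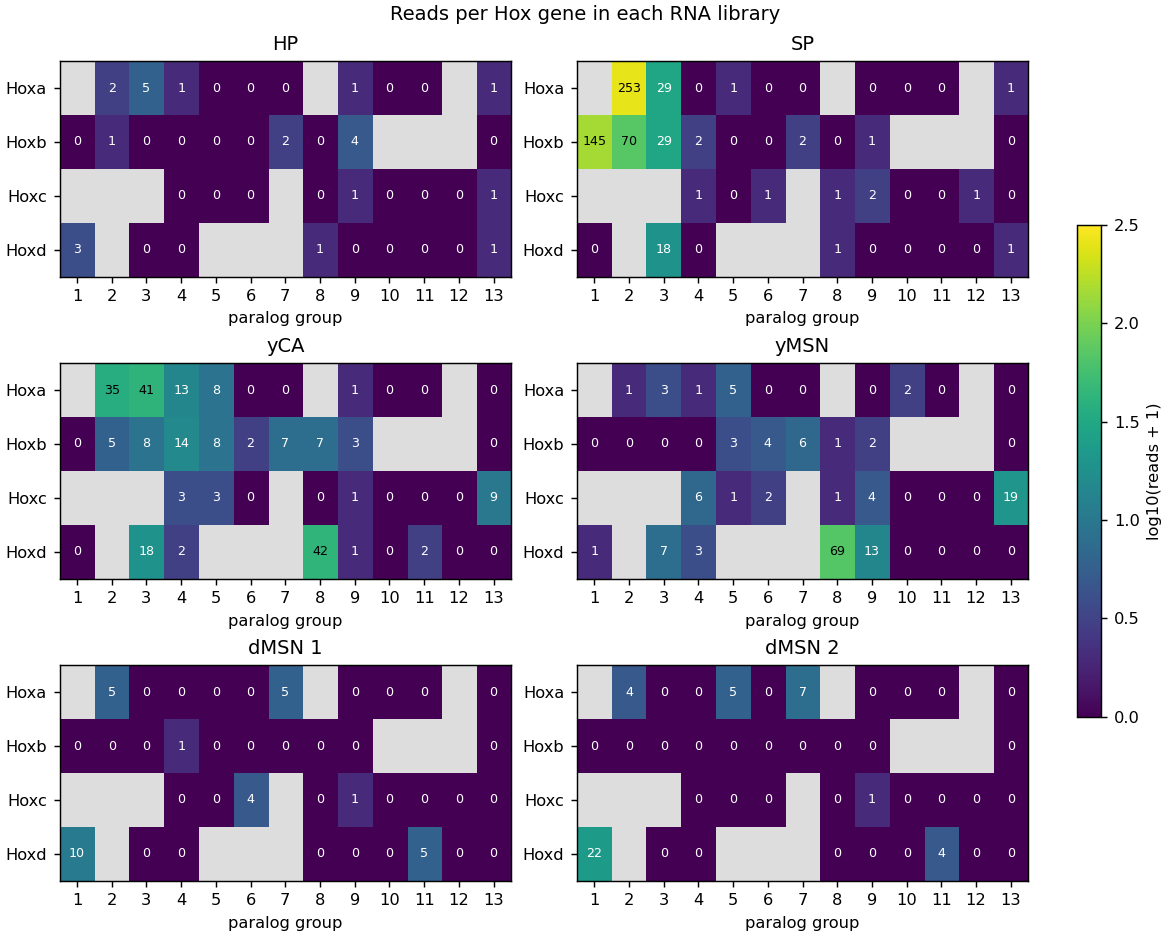
Reads of each Hox gene (number and colour, colour as log10 of reads + 1) by cluster (rows) and paralog group (columns) in the 6 libraries. Grey marks places where a cluster has no gene or the gene is not reported here; reads lie in groups 1 to 3 in SP, spread mostly over groups 2 to 9 in yCA, and are highest for Hoxd8 in yMSN.

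At least 1 read was counted for 23 Hox genes in yCA, 21 in yMSN, 19 in SP, 14 in HP, 8 in dMSN 1 and 6 in dMSN 2. Among all 34620 symbols, the share with a read was 64.6%, 69.6%, 63.3%, 62.1%, 64.2% and 64.5% in the same order. At least 10 reads were counted for 6 Hox genes in yCA, 3 in yMSN, 7 in SP, 0 in HP, 1 in dMSN 1 and 1 in dMSN 2, against 48.9%, 51.6%, 47.4%, 46.4%, 54.3% and 53.8% of all symbols. The dMSN libraries had the most reads in all and the fewest Hox genes counted.

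In SP the Hox reads were anterior. Paralog groups 1 to 3 held 560 of the 575 reads, or 97.4% (exact 95% binomial interval 95.7 to 98.5). Groups 4 to 8 had 9 reads and groups 9 to 13 had 6. By cluster, SP had 300 reads in Hoxa, 249 in Hoxb, 20 in Hoxd and 6 in Hoxc, a cluster that has no gene of groups 1 to 3.

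In yCA the reads were spread over anterior and central groups. Groups 1 to 3 held 111 of its 237 reads (46.8%, 40.3 to 53.4), groups 4 to 8 held 109 (46.0%, 39.5 to 52.6) and groups 9 to 13 held 17 (7.17%). In yMSN groups 4 to 8 held 102 of 154 reads (66.2%, 58.2 to 73.6), groups 9 to 13 held 40 (26.0%, 19.2 to 33.6) and groups 1 to 3 held 12 (7.79%). The intervals of the anterior share do not overlap among SP, yCA and yMSN. The Hoxd cluster held 93 of the yMSN reads (60.4%), mostly in the single gene Hoxd8. In HP and dMSN the totals of 26, 40 and 43 reads are too small for a fine split, and groups 1 to 3 held 13, 24 and 26 of them.

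**Figure D2:**
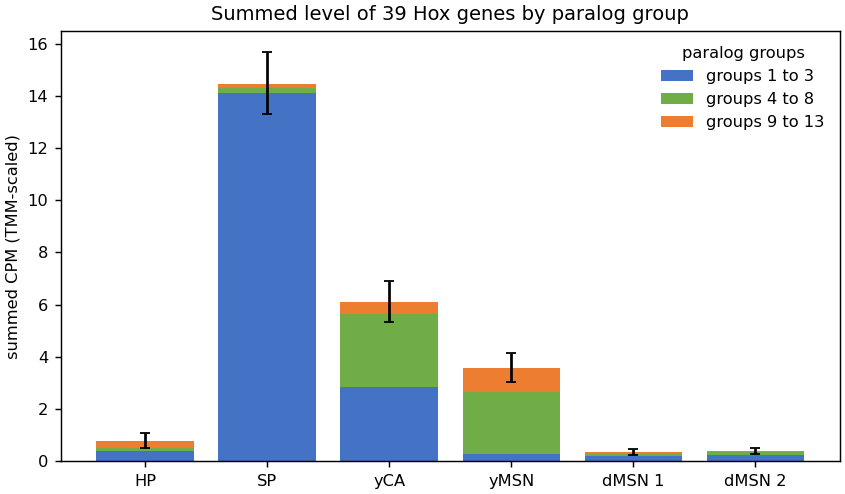
Summed level of the 39 Hox genes in each library, in TMM-scaled CPM, with colours for paralog groups 1 to 3, 4 to 8 and 9 to 13 and bars for the exact 95% counting interval of the total. SP has 14.5 CPM, almost all in groups 1 to 3, and HP and both dMSN libraries stay under 1 CPM.

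Anterior Hox genes were higher in striatal than in hippocampal precursors. Hoxa2, Hoxb1 and Hoxb2, the genes of groups 1 and 2 with the most reads, exceeded 2-fold in SP over HP with at least 1 CPM in SP. These were all 3 of the Hox genes that reached 1 CPM in either library. No Hox gene reached 1 CPM in HP, so the rule could be met through SP alone and it fixed the direction. Among the 14093 genes at 1 CPM, 3.23% were at least 2-fold higher in SP and 1.41% at least 2-fold lower. With 1 library on each side there is no replicate check, and folds carry a counting interval only. The median log2 ratio over all genes at 1 CPM was -0.00.

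Hoxa2, which patterns the second pharyngeal arch and the anterior hindbrain, had 253 reads in SP, 2 in HP, 35 in yCA, 1 in yMSN and 5 and 4 in the dMSN pair. Its levels were 6.37 CPM in SP, 0.0574 in HP, 0.900 in yCA and 0.0230 in yMSN, with 0.0416 and 0.0345 in dMSN (mean 0.0380 ± 0.00498, SD, n = 2). SP stood far above every other library, yCA came next, and the rest lay at a few reads. The ratio of SP over HP was 111-fold, with an exact 95% interval of 30.4 to 921.

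Hoxb1, which gives the fourth rhombomere of the hindbrain its identity, had 145 reads in SP (3.65 CPM) and 0 reads in each of the other 5 libraries. Hoxc12 was the other Hox gene with reads in SP alone, with 1 read. Against the limit of 3 reads in HP, the level of Hoxb1 in SP was at least 42.4-fold higher. The promoter window with a match at 162 bases before the start, printed above, belongs to this gene.

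Hoxb2, active in the hindbrain from the third rhombomere back, had 70 reads in SP, 1 in HP, 5 in yCA and none in yMSN, dMSN 1 or dMSN 2. The levels were 1.76 CPM in SP, 0.0287 in HP and 0.129 in yCA. SP was the only library above 1 CPM, and SP over HP was 61.4-fold (10.7 to 2458), a wide interval since HP had 1 read.

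Further anterior genes were higher in SP than in HP as well, at lower levels. Hoxa3, a gene of the posterior hindbrain and the third pharyngeal arch, had 5 reads in HP and 29 in SP (0.730 CPM), a ratio of 5.08 (1.95 to 16.8). Hoxb3, its paralog, had 0 and 29 reads, 8.47-fold higher in SP with HP put at 3 reads (interval from 6.46). Hoxd3 had 0 and 18 reads, 5.26-fold higher in SP by the same limit (interval from 3.85). Each of the 6 anterior genes described here was thus above HP, and the lower end of the interval was above 1 for those with reads in HP. They were picked by at least 10 reads in either library, which no Hox gene had in HP, so this direction was largely set beforehand. Hoxd1, also anterior, had 3 reads in HP and 0 in SP. Outside the anterior groups no Hox gene exceeded 4 reads in HP or 2 in SP, and Hoxb9 had 4 and 1.

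**Figure D3:**
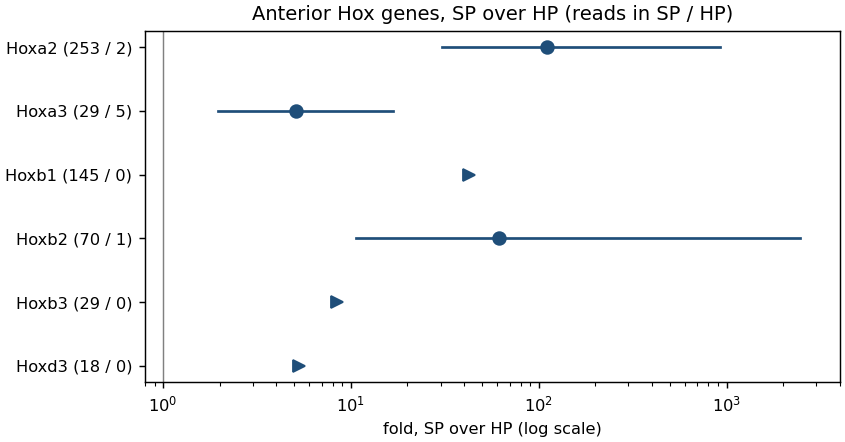
Fold of SP over HP on a log axis for 6 anterior Hox genes with at least 10 reads in either library, with reads in SP and HP beside each name. Dots carry exact 95% counting intervals, triangles are lower bounds against 3 reads in HP, and the grey line marks a fold of 1; all 6 genes lie to its right, from 5.08 for Hoxa3 to 111 for Hoxa2.

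Homeobox genes at the edges of the clusters and an antisense transcript were higher in SP too. The antisense transcript Hoxb3os, in the Hoxb cluster, had 4 reads in HP and 127 in SP (0.115 and 3.20 CPM), 27.8-fold higher in SP (10.6 to 104), with 21 in yCA, 2 in yMSN and none in dMSN. No strand setting is stated for the counting, so reads of Hoxb3os and of the Hox genes it overlaps cannot be told apart. Overlapping transcripts of neighbouring genes, such as Hoxd3 and Hoxd4, carry the same limit. Evx1, a homeobox gene beside the Hoxa13 end of Hoxa, had 4.63 CPM in SP, 0.316 in HP, 0.0691 in yMSN and 0 in the other libraries. Evx2, beside the Hoxd13 end of Hoxd, had 1.06 CPM in HP, 5.59 in SP and 0 in all others, while Hoxa13 and Hoxd13 had 1 read each in SP. Both Evx genes were at least 2-fold higher in SP, and none of the other flanking genes followed was. Mtx2, beside the Hoxd1 end, was between 48.6 and 76.1 CPM in the 6 libraries.

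Markers of regions behind the forebrain were higher in SP than in HP, as the anterior Hox genes were, but lower in yCA than in HP. The summed level of 12 hindbrain and spinal cord markers was 111 CPM in HP and 190 in SP, and 84.3, 76.3, 74.4 and 69.7 CPM in yCA, yMSN, dMSN 1 and dMSN 2. Of the 11 that reached 1 CPM, 5 were at least 2-fold higher in SP and 1 was lower, with a median log2 ratio of 0.95. Atoh1, a gene of the rhombic lip, had 0.0574 CPM in HP and 12.1 in SP, and Lbx1, a gene of dorsal hindbrain and spinal cord neurons, had 0 and 3.32.

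The 7 midbrain and isthmus markers summed to 151 CPM in HP, 268 in SP and 11.5 in yCA, with 4 of 7 at least 2-fold higher in SP. En2 among them had 17.8 and 98.7 CPM. Forebrain markers went the other way, at 339 CPM in HP and 190 in SP, with 0 of 8 higher and 3 lower. The part of tissue outside the forebrain in the Hox levels of SP was not tested. No marker of the hindbrain list was at 0 in SP, and 1 of 12 was at 0 in HP.

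**Figure D4:**
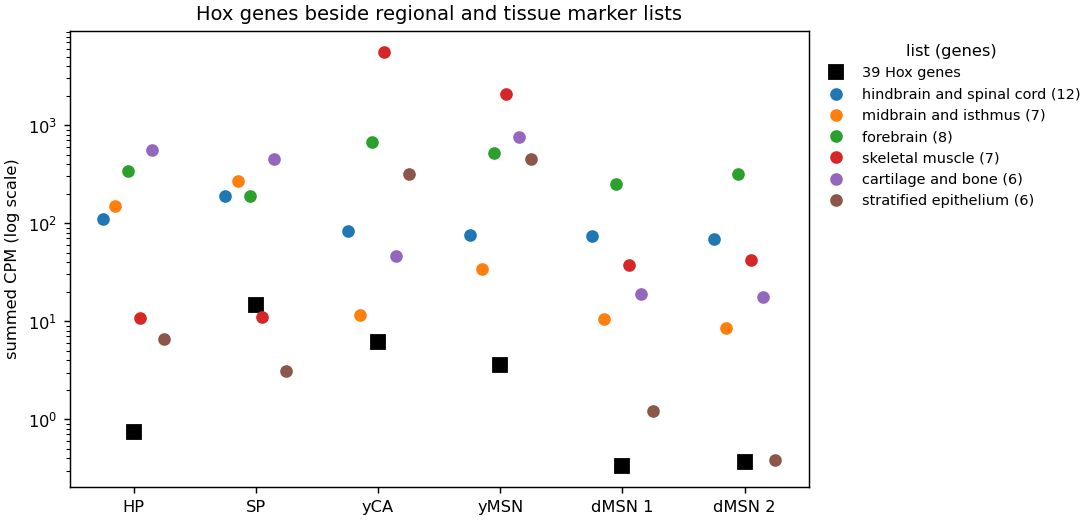
Summed level in CPM, on a log axis, of the 39 Hox genes (black squares) and of 6 marker lists (colours, with the number of genes in each) in every library. Hindbrain and midbrain lists are higher in SP than in HP and muscle and stratified epithelium lists are highest in yCA and yMSN.

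Hox genes were not at background in the young neuron libraries, and those counted differed between them. In yCA over HP, Hoxa3 and Hoxd8 were at least 2-fold higher, both of the Hox genes that reached 1 CPM. No Hox gene reached 1 CPM in HP, which fixed this direction. Over all 15049 genes at 1 CPM, 23.6% were higher and 14.4% lower. In yMSN over SP, Hoxd8 was higher and Hoxa2, Hoxb1 and Hoxb2 were lower, beside 25.3% of 15536 genes higher and 9.52% lower. In yMSN over yCA, Hoxa3 was lower and none was higher, beside 11.9% of 15426 genes higher and 2.63% lower.

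Hoxd8, a central gene of trunk and spinal cord, had 42 reads in yCA, 69 in yMSN, 1 each in HP and SP and none in dMSN. Its level was 1.08 CPM in yCA and 1.59 in yMSN against 0.0287 in HP and 0.0252 in SP. Both young libraries were high and every other library was at or near 0. The ratio was 37.6-fold for yCA over HP (6.39 to 1520) and 63.1-fold for yMSN over SP (11 to 2528). Between the young libraries the ratio of yMSN over yCA was 1.47, with an interval of 0.988 to 2.21 that includes 1.

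Hoxa3 had 41 reads in yCA, 29 in SP, 5 in HP, 3 in yMSN and none in dMSN, or 1.05, 0.730, 0.144, 0.0691, 0 and 0 CPM. It was high in SP and yCA and low in HP and yMSN. The level in yCA was 7.34-fold that of HP (2.90 to 23.8), and the level in yMSN was 15.3-fold below that of yCA (4.87 to 77.0). Hoxa2, with 35 reads in yCA, was 15.7-fold above HP there (4.03 to 134), and with 1 read in yMSN it was 277-fold below SP (49.2 to 10969).

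**Figure D5:**
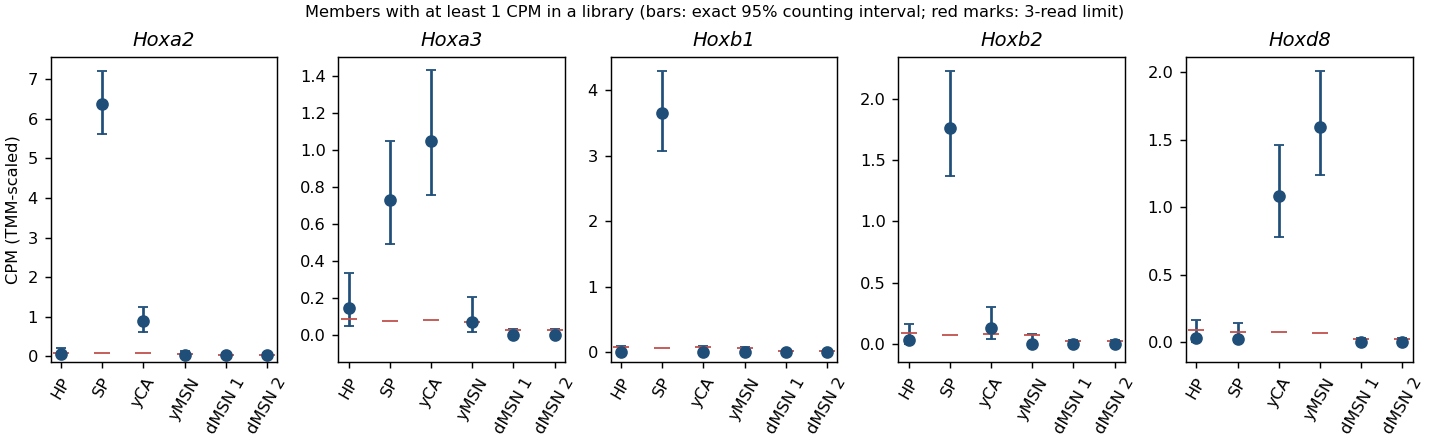
Level in TMM-scaled CPM of the 5 Hox genes that reached 1 CPM, by library, with exact 95% counting intervals and red marks at the limit that a count of 0 allows (3 reads). Hoxa2, Hoxb1 and Hoxb2 peak in SP, Hoxa3 in SP and yCA, and Hoxd8 in yCA and yMSN.

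Further genes were counted in 1 or both young libraries below 1 CPM. Hoxa4 peaked in yCA with 13 reads (0.334 CPM), 11.6-fold above the 1 read of HP (1.75 to 495). Hoxb4, its paralog, peaked there with 14 reads (0.360 CPM), 4.18-fold above HP put at 3 reads (interval from 2.97). Hoxd3 had 18 reads each in SP and yCA (0.463 CPM in yCA, its highest) and 7 in yMSN. Hoxc13, a posterior gene known for its part in hair and nail, peaked in yMSN with 19 reads (0.437 CPM) and had 9 in yCA, 1 in HP and none in SP or dMSN. Hoxd9 peaked in yMSN with 13 reads (0.299 CPM), 11.6-fold above the 1 read of yCA (1.75 to 495). Of these genes, the central Hoxa4 and Hoxb4 thus peaked in yCA and the posterior Hoxc13 and Hoxd9 in yMSN. Hoxd8 had the most reads of any Hox gene in both young libraries. For Hoxc13 itself the ratio of yMSN over yCA was 1.89 (0.815 to 4.74), an interval that includes 1.

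The low Hoxb genes followed the same split. From Hoxb2 to Hoxb9, each of the 8 genes had reads in yCA, between 2 for Hoxb6 and 14 for Hoxb4. In yMSN, Hoxb1 to Hoxb4 had none, and Hoxb5, Hoxb6, Hoxb7, Hoxb8 and Hoxb9 had between 1 and 6. A count of 0 in yMSN allows up to 0.0691 CPM, and the 14 reads of Hoxb4 in yCA correspond to 0.360 CPM.

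Both young libraries also held transcripts of tissues outside the brain. Skeletal muscle markers (7 of 7 at 1 CPM in each) summed to 5588 CPM in yCA and 2082 in yMSN, against 10.9 in HP, 11 in SP, 37.9 in dMSN 1 and 42.4 in dMSN 2. Stratified epithelium markers (6 of 6 at 1 CPM) summed to 317 CPM in yCA and 448 in yMSN, against at most 6.66 CPM elsewhere. Thyroid markers were 82.2 CPM in yCA and 1.24 in yMSN. Olfactory epithelium markers were 0.565 CPM in yCA and 63.6 in yMSN, and cartilage and bone markers were 46.8 and 763 CPM. Neural crest and mesenchyme markers were 1249 CPM in yCA, 8689 in yMSN, 1303 in HP and 1155 in SP, and 18.4 and 19.1 in dMSN. The part of these tissues in the Hox levels was not tested.

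Across the pair of lineages, young libraries were compared with precursors in edgeR's quasi-likelihood test, with lineage and stage as terms over all 6 libraries. Of 19192 genes tested, 35.4% were called at an adjusted p of 0.05, 21.7% higher and 13.7% lower in the young libraries. Higher calls were 61.3% of the calls with TMM, 52.4% with relative log expression (RLE) scaling and 51.2% with DESeq2. Of the 39 Hox genes, 11 passed the filter on low counts, and Hoxd8 was called higher and Hoxb1 lower. Hoxd8 rose by 5.54 on the log2 scale (SE 0.721, edgeR adjusted p = 0.00848), in both lineages. The call for Hoxb1 (edgeR adjusted p = 0.0173) rests on the reads of SP alone, since HP and both young libraries had 0, and DESeq2, limma voom and edgeR with 1 mean per cell group did not call it. Hoxc13 had a log2 difference of 4.42 and did not pass (edgeR adjusted p = 0.0656), while limma voom and edgeR with 1 mean per cell group called it higher. The rest had adjusted p-values from 0.125 for Hoxa4 to 0.992 for Hoxa3. With HP, SP, yCA or yMSN left out, Hoxd8 was called each time, and Hoxa2 was called lower without HP or yCA and higher without SP or yMSN. Each such fit compares a lone young library with a lone precursor library. Its spread comes from the dMSN pair alone, so it is not a replicated test.

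Striatal against hippocampal libraries, in the same fit, gave 0 calls among all genes (0%) and 0 among Hox genes, with 826 genes and 2 Hox genes (Hoxa4 and Hoxb1) at an unadjusted p under 0.05. DESeq2 called 60 genes and limma voom 0, and neither called a Hox gene. Hoxa2 had a log2 difference of 1.29 with an SE of 3.23 there, as SP exceeded HP while yMSN was below yCA. Without yCA or without yMSN, Hoxa2 and Hoxb1 were called higher, and that difference then comes from SP and HP. Without HP or without SP, Hoxa2 was called lower, from yMSN and yCA. Each of these fits compares a lone library with a lone library. Its spread comes from the dMSN pair alone, so it is not a replicated test. P-values here measure only the spread between these libraries, which the labels do not tie to separate animals.

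In the dMSN libraries, the deepest of the series, Hox reads were few. Both had reads of Hoxa2 (5 and 4), Hoxa7 (5 and 7), Hoxc9 (1 and 1), Hoxd1 (10 and 22) and Hoxd11 (5 and 4), and 31 and 33 Hox genes were at 0. Hoxa5 had 0 and 5 reads. Hoxd1, an anterior gene also known in pain-sensing neurons, was the highest Hox gene in both, at 0.0831 and 0.190 CPM (mean 0.136 ± 0.0755, SD, n = 2). It had 3 reads in HP, 1 in yMSN and 0 in SP and yCA, and the level in HP was 0.0861 CPM, so dMSN does not stand clear of HP. Hoxa7, a central gene, had reads in dMSN alone, at 0.0416 and 0.0604 CPM, which is under the limit of a count of 0 in each of the 4 shallower libraries.

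Compared with SP in edgeR, with 1 mean per cell group, 72.1% of the genes tested were called, 39.1% higher and 33.1% lower in dMSN. Of the 11 Hox genes tested, 7 were called lower and none higher, among them Hoxa2, Hoxa3, Hoxb1, Hoxb2, Hoxb3 and Hoxd3. Hoxa2 fell by 7.32 on the log2 scale (SE 0.554, edgeR adjusted p = 1.4e-07). By single libraries, its level in SP was 153-fold that of dMSN 1 (64.8 to 476) and 184-fold that of dMSN 2 (71.2 to 682). For genes at 0 in dMSN the ratio is a lower bound, at least 146-fold and 141-fold for Hoxb1, at least 70.7-fold and 68.1-fold for Hoxb2, and at least 18.2-fold and 17.5-fold for Hoxd3. Each of the 11 Hox genes tested was highest in SP, yCA or yMSN, and passed the filter on low counts there, not in dMSN. The filter thus largely set the direction of the Hox calls, and the shares over all genes are not a like comparison. The lone SP library is assumed to vary like the dMSN pair, and with lineage and stage as terms 2 of the 7 were called, Hoxb1 and Hoxb2, or Hoxb1 alone when either dMSN library was left out.

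Compared with yMSN in the same fit, 67.5% of genes were called, 32.1% higher and 35.4% lower in dMSN. Hoxa3, Hoxc13, Hoxd3 and Hoxd8 were called lower, all with 0 reads in both dMSN libraries. They passed the filter on low counts through libraries other than dMSN, which largely set this direction. With dMSN put at 3 reads, the level of Hoxd8 in yMSN was 63.7-fold that of dMSN 1 and 61.4-fold that of dMSN 2 (edgeR adjusted p = 1.3e-05). The intervals began at 50.4 and 48.6. For Hoxc13 these ratios were 17.5-fold and 16.9-fold (edgeR adjusted p = 0.00102), with intervals from 12.9 and 12.4. Hoxa3 had 3 reads in yMSN (edgeR adjusted p = 0.0287), and DESeq2 called Hoxd8 alone. Hoxa2, with 1 read in yMSN, did not pass (edgeR adjusted p = 0.657).

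Genes that work with or upstream of the Hox clusters were followed in the same comparisons. All 10 Hox cofactors had at least 1 CPM in every library, and 0 of 10 differed 2-fold between SP and HP (median log2 ratio 0.28). Pbx3, which encodes a DNA-binding partner, had 114 CPM in yMSN, 91.9 in yCA, 92.7 in SP, 67.9 in HP and 30.9 ± 0.113 (SD, n = 2) in dMSN. In young against precursor libraries Meis2 and Pknox1 rose and Pbx2, Meis1 and Gmnn, which encodes the Hox-binding replication inhibitor geminin, fell, 5 of 10 in all, beside 35.4% of all genes tested. Meis2 rose by 1.45 (log2, SE 0.248, edgeR adjusted p = 0.0107). Compared with SP, 3 of 10 were higher and 6 lower in dMSN, beside 39.1% and 33.1% of all genes tested. The cofactors were thus counted in libraries with many and with few Hox reads.

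Of 17 upstream patterning and retinoic acid genes, 13 reached 1 CPM in HP or SP, and 2 were at least 2-fold higher and 5 lower in SP (median log2 ratio -0.42). Cyp26b1, which breaks down retinoic acid, had 12.8 CPM in HP and 71.5 in SP, 5.57-fold higher (5.04 to 6.17). Gbx2, a gene of the anterior hindbrain border, had 0.603 and 4.66 CPM, 7.72-fold higher (4.91 to 12.8). Cyp26a1, a second such enzyme, was 3.87-fold lower in SP (2.88 to 5.26), and Aldh1a2, which makes retinoic acid, was 3.08-fold lower (2.19 to 4.40). Egr2, the zinc finger regulator of rhombomeres and of Hoxa2 and Hoxb2, had 35 reads in HP and 13 in SP. The retinoic acid receptors Rarb and Rarg were also lower in SP, by 2.09-fold (1.92 to 2.29) and 2.47-fold (2.30 to 2.65). In young against precursor libraries 2 of the 14 tested rose and 1, Gdf11, fell, beside 21.7% and 13.7% of all genes tested.

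The 17 Polycomb and Trithorax regulators of Hox genes were all above 1 CPM in every library, and 0 differed 2-fold between SP and HP (median log2 ratio 0.00). In young against precursor libraries 11 of 17 fell and none rose, beside 13.7% and 21.7% of all genes tested, with a median log2 difference of -0.61 beside 0.10 over all genes tested. Ezh2, the Polycomb methyltransferase, had 299 CPM in SP, 298 in HP, 121 in yCA, 102 in yMSN and 4.50 ± 0.257 (SD, n = 2) in dMSN. Cbx2, a Polycomb reader, had 165, 210, 36.5 and 51.4 CPM in that order and 2.74 ± 0.119 in dMSN. Compared with SP, 15 of 17 were lower in dMSN and none higher, beside 33.1% and 39.1% of all genes. Compared with yMSN, 13 were lower and 2 higher, beside 35.4% and 32.1%. The summed level of the 17 regulators was lowest in dMSN 1 and dMSN 2 (696 and 653 CPM), which also had the lowest summed Hox levels. The Hox intervals of HP and dMSN 2 meet, however. Between the precursors the regulator sums were nearly equal, at 2371 CPM for HP and 2358 for SP. Their summed Hox levels were 0.746 and 14.5 CPM. A relation between these regulators and the Hox levels was not tested.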

How the data were processed

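The deposited files hold raw read counts per gene symbol, 1 table for each of 6 polyA RNA libraries (Illumina TruSeq RNA kit, per the labels' protocols), with 34620 symbols and 5 HTSeq summary lines. Per the submitters' processing notes, the builds mm9 and NCBIM37 and the tools HTSeq, edgeR, TopHat, TopHat2 2.0.2, Bowtie 1.0.0, methylKit and Bismark were used; their roles and the strand setting are not given in the sources used here. Reads in no gene were 5.34% to 9.81% of the total, ambiguous reads 1.38% to 2.01% and reads aligned to several places 17.3% to 27.3%, and all stayed out of library sizes.

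The fits were made with edgeR 4.0.16 in R 4.3.3 (TMM scaling, filterByExpr, quasi-likelihood test, Benjamini-Hochberg adjustment over 19192 genes at 0.05), limma 3.58.1 and DESeq2 1.42.0. The model with lineage and stage left 2 residual degrees of freedom, and that with 1 mean per cell group left 1. Pairs of single libraries have no test: ratios of CPM carry exact conditional binomial 95% intervals, single levels exact Poisson ones, and a count of 0 is put at 3 reads per library. The 2-fold rule needs at least 1 CPM in the higher library. The steps were tested on simulated data. The dMSN libraries differed beyond sampling noise (chi-square over degrees of freedom 163 over 19833 genes) and count as 2 samples.

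Any Hox gene could be named, in full where it reached 1 CPM in a library and by its highest library where it had at least 10 reads there. Of the other lists, members with at least 1 CPM could be named. Members and lists were chosen with earlier results of these data known. Promoter windows came from RefSeq (GRCm38.p6), whose gene table held all 39 Hox symbols; this build differs from that of the counts, and no count was placed by coordinate. Protein sequences were not used here, and a few genes are not reported here. Alternatives were plain library sizes, RLE scaling, no filter, other minimum reads or CPM, DESeq2, limma voom, the other model, and each library left out.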

Additional observations from a re-analysis of the deposited data

Results flagged for a closer look

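For 4 anterior Hox genes the young library lay above its precursor in the hippocampal pair and below it in the striatal pair, with 1 library at each point; the difference between the pairs was not tested. The log2 ratio of Hoxa2 was 3.97 in the first (yCA over HP) and -8.11 in the second (yMSN over SP). Hoxa3 had 2.88 and -3.40. Hoxb3 had 1.26 and -3.40, with the 0 reads of HP and of yMSN each put at 3. Hoxd3 had 2.43, with the 0 reads of HP again put at 3, and -1.49. SP and yCA, the higher library of each pair, are also those with Y-linked genes at 0, and the part of this in the result was not tested.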

How the results depend on the processing

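Over 21 results and their alternatives, 57 values stayed within the limits set and 38 moved. Most of these are counts, which carry no sign, and Hoxa2 was called in opposite directions when different libraries were left out. Asking for 10 reads left 7 Hox genes in SP, 6 in yCA, 3 in yMSN, 0 in HP and 1 in each dMSN library. Plain library sizes gave summed levels of 16.0 CPM in SP, 4.17 in yMSN, 0.263 in dMSN 1 and 0.295 in dMSN 2. At least 0.5 CPM gave 5 Hox genes 2-fold higher in SP than HP, and at least 5 CPM gave 1. For young against precursor, leaving out a dMSN library gave 3590 to 3647 calls among all genes. DESeq2 called 1 Hox gene there, Hoxd8, and leaving out HP, yCA or yMSN gave 7, 5 and 4. For striatal against hippocampal, calls among all genes were 60 with DESeq2, 356 with 1 mean per cell group, and 1495, 1510, 116 and 130 without HP, SP, yCA and yMSN. Hox calls there were 1, 1, 2 and 2 in the same order. For dMSN against SP, Hox calls were 2 with lineage and stage, and 1 to 1 with a dMSN library also left out. For dMSN against yMSN, Hox calls were 7 without the filter, 1 with DESeq2, 2 with lineage and stage, and 2 to 2 with a dMSN library also left out, where 6609 to 7073 genes were called. Where a cause is not part of the setting itself, it was not tested. In the lineage and stage fits without HP, SP, yCA or yMSN, the spread came from the dMSN pair alone. RLE scaling and DESeq2 put the share of higher calls in young against precursor at 52.4% and 51.2%, against 61.3% with TMM, and RLE moved the median log2 difference of all genes from 0.10 to -0.02. No paired analysis was possible because dMSN alone has a second replicate, so the groups compared share 1 number. Most Hox genes lie at under 10 reads, where depth allows only large differences between libraries to be seen.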
